A study of Mus musculus with 6 samples.

Results

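Bone morphogenetic protein (BMP) signalling was examined in differentiated C2C12 cells through 10 genes, namely the ligands Bmp4, Bmp5 and Bmp6, the receptors Bmpr1a and Bmpr2, the secreted antagonists Grem1 and Nog, the inhibitory Smads Smad6 and Smad7, and the protease gene Bmp1. The 10 genes were taken by name from the 46078 genes of the count table, and 8 of them were among the 14828 genes with enough counts to be tested. C2C12 is a mouse myoblast line that fuses into myotubes when serum is withdrawn. Hnrnpa2b1 encodes an RNA-binding protein of the hnRNP family. 3 libraries came from Hnrnpa2b1 knockout (KO) cells and 3 from Hnrnpa2b1 wild-type (WT) cells, all after 2 days of serum withdrawal with ITS, a supplement of insulin, transferrin and selenium, and the comparison asks which RNAs differ when Hnrnpa2b1 is lost. The KO was made with Cas9 and a guide RNA, and clones were isolated for both genotypes, but the clone behind each library was not stated in the sources used here, so the p-values measure only the spread between these libraries. Values below are given for KO replicates 1, 2 and 3 and then WT replicates 1, 2 and 3.

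BMP ligands are secreted dimers of the TGF-beta family that bring together type I receptors such as Bmpr1a and type II receptors such as Bmpr2. The receptors phosphorylate Smad1, Smad5 and Smad9, which join Smad4 in the nucleus and switch on targets such as the Id genes, whose products bind E proteins and hold back MyoD. Noggin and gremlin bind the ligands outside the cell, and Smad6 and Smad7 act inside the cell against the receptors and Smads and are themselves induced by the pathway. In C2C12 cells added BMP is known to block myotube formation and turn on osteoblast genes such as Alpl. Bmp1, despite its name, is not a member of the TGF-beta family: it is a tolloid metalloprotease that trims procollagens and cleaves the BMP antagonist chordin.

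The libraries held 33605258 to 40558740 counts each. Levels are given as CPM, counts scaled to library size but not to gene length, or as TPM, which is corrected for both. Hnrnpa2b1 itself stood at 159, 195 and 248 CPM in KO and 225, 229 and 252 CPM in WT. The ranges overlapped and edgeR's quasi-likelihood test gave a log2 fold change of −0.23 with an adjusted p of 0.381, while in TPM it stood at 29.5, 38 and 59.9 in KO and at 56.6, 57.4 and 58.0 in WT (limma adjusted p = 0.171), with KO replicates 1 and 2 below all WT libraries and KO replicate 3 above them. The RNA level thus does not separate all labelled libraries by genotype, and a count over the whole gene does not measure an edited reading frame or the protein. Summed muscle marker levels of 12 genes were 3928 to 8228 TPM in KO and 5248 to 6761 TPM in WT, with KO replicate 1 above every WT library and KO replicates 2 and 3 below. Of these 12 genes 3 passed the edgeR threshold (25%, beside 22.7% of all tested genes), with Myod1 and Cdh15 higher in KO (log2 fold changes 0.99 and 0.70) and Myf5 lower (−1.50). Myh3, embryonic myosin heavy chain, was below every WT library in each KO library but did not pass in edgeR (log2 fold change −1.18, adjusted p = 0.126), while it passed in limma on TPM (difference of −1.44 in log2(TPM + 1), adjusted p = 0.0404). Among 8 fibroblast markers, 6 were tested and 4 were higher in KO (Pdgfra, Dpt, Pi16 and Ly6a, 66.7% beside 22.7% of all tested genes). Summed levels were 61.2 to 95.1 TPM against 13.8 to 18.4 TPM in WT, and Ly6a alone held 44.5, 67.8 and 31.9 TPM of the KO sums. Col15a1 went the other way without passing (log2 fold change −0.70, edgeR adjusted p = 0.639), and Thy1 was at 0 to 0.114 CPM in every library. Of the adipocyte and immune lists, 5 of 8 and 3 of 6 genes had at most 3 counts in every library. The adipocyte marker Cebpa was higher in KO (log2 fold change 1.24, edgeR adjusted p = 0.0323, limma on TPM 0.0572), the 1 call among 3 tested adipocyte markers (33.3%, beside 22.7% of all tested genes), and Pparg stood at 8.58 to 16.1 CPM over the 6 libraries (log2 fold change −0.17, edgeR adjusted p = 0.622). In bulk RNA, fewer cells of a type and less RNA per cell cannot be told apart, and the part of these muscle, adipocyte and fibroblast markers in the results below was not tested.

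Bmp4, Bmpr1a and Bmp1 were higher in KO, and no gene of the 10 was lower at the threshold of an adjusted p of 0.05. Of the 8 tested genes, 3 (37.5%) passed in edgeR's test, beside 22.7% of all tested genes in either direction, 12.1% higher and 10.6% lower in KO. The median log2 fold change of the 8 genes was 0.42, beside 0.03 over all tested genes, and 7 of the 8 (87.5%) were positive, beside 52.3% of all. For 3 of the 8 (37.5%) every KO library was above every WT library, beside 22.7% of all tested genes, and ranges did not overlap in either direction for 44.3% of all tested genes. No gene of the 10 was lower at an unadjusted p of 0.05 in this edgeR fit (18.5% of all tested genes were) or at an adjusted one in DESeq2 (11.8% of all were). Nog, however, passed as lower in edgeR with no filter on counts (adjusted p = 0.0227), beside 7.33% of all genes. Without WT replicate 1 none of 9 tested genes passed the edgeR threshold, when 6.01% of all tested genes did, and without WT replicate 3 only Bmp4 of 9 did, beside 8.43% of all. These counts describe 8 genes and were not tested for enrichment.

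**Figure D1:**
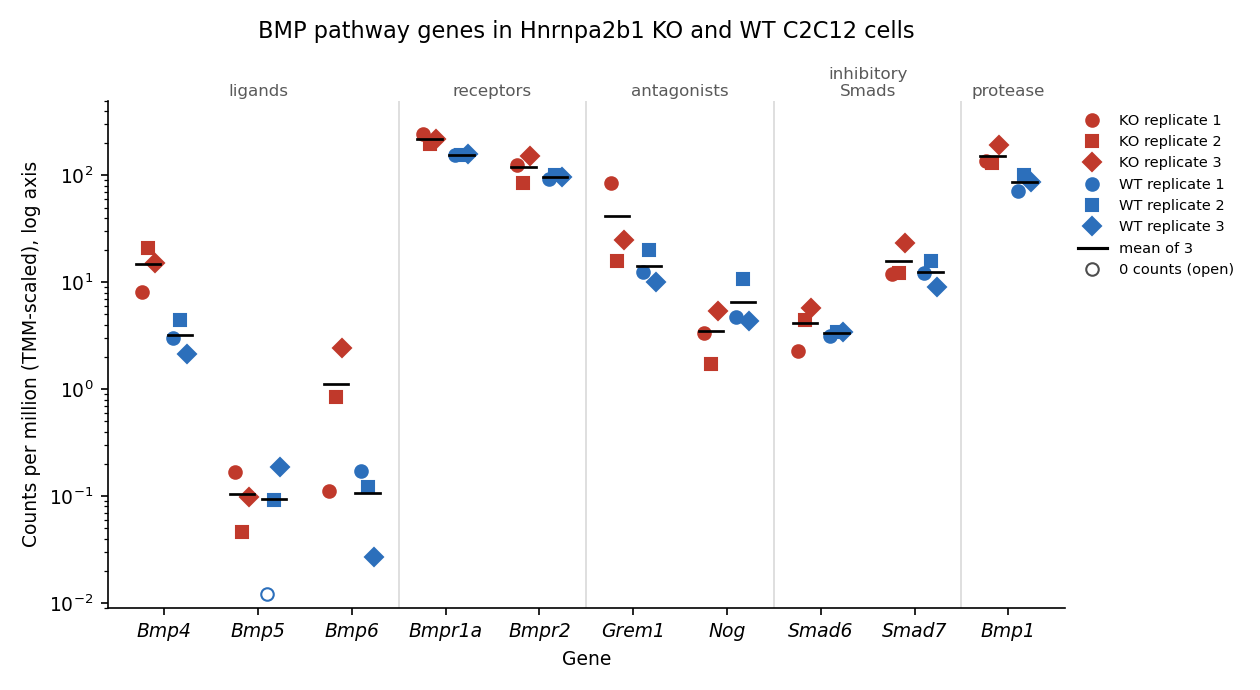
CPM on a log axis of the 10 genes, grouped by role, in the 3 KO (red) and 3 WT (blue) libraries, with a black bar at each mean and an open symbol at 0 counts. Bmp4, Bmpr1a and Bmp1 do not overlap between genotypes, the 3 KO libraries of Grem1 and of Bmp6 lie far apart, and Bmp5 is near 0 throughout.

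Bmp4 (ENSMUSG00000021835, GRCm38 chr14:46383520-46390669, minus strand) had the highest TPM of the 3 ligands in every library. It stood at 8.16, 21 and 15.2 CPM in KO and at 3.01, 4.42 and 2.15 CPM in WT, from 292, 917 and 625 against 104, 145 and 80 counts. Each KO library exceeded each WT library, with KO replicate 1 the lowest of its group and closest to WT. The means were 14.8 ± 6.42 CPM and 3.19 ± 1.14 CPM (SD, n = 3 each), a 4.64-fold difference (log2 fold change 2.22 ± 0.40 SE, adjusted p = 0.00914 in edgeR's quasi-likelihood test). The exact two-sided permutation test on this gene alone gave p = 0.1, the smallest that 3 libraries against 3 allow. On the length-corrected scale Bmp4 stood at 2.46, 6.66 and 5.79 TPM against 1.06, 1.51 and 0.638 TPM, a difference of 1.47 in log2(TPM + 1) with an adjusted p of 0.012 in limma, lost without WT replicates 1 and 3 (0.0641 and 0.0564). This measure called 20.5% of the 11691 genes it tested. Without WT replicate 1 the edgeR adjusted p was 0.0519 at a log2 fold change of 2.17, and Bmp4 passed under every other alternative run on the counts.

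Bmp4 was the only ligand of the 10 genes that passed in the edgeR fit of all 6 libraries with the count filter. The 250 bases before its annotated start are shown for that reason. They come from the RefSeq promoter table of GRCm38.p6 (chr14:46390670-46390919, minus strand), read 5′ to 3′ and ending at the base before the start, and they overlap no annotated exon. No letters are in capitals, since none of the motifs GGCGCC (a GC-rich palindrome of Smad1 and Smad5), GTCTAGAC (the Smad3 and Smad4 palindrome) and CAGCTG (an E-box) occurred in them. Each of these reads the same on both strands.
Bmp4: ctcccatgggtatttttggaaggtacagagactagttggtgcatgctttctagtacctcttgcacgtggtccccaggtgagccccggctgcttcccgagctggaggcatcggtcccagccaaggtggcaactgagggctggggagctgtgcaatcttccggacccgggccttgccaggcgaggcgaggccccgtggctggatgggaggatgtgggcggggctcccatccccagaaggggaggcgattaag
Among 32851 RefSeq windows of this length 9.59% held GGCGCC, 0.167% held GTCTAGAC and 13% held CAGCTG.

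Bmp5 (ENSMUSG00000032179, chr9:75775364-75900310, plus strand), a ligand close to Bmp6 and Bmp7 in sequence, had 6, 2 and 4 counts in KO and 0, 3 and 7 counts in WT. These levels are within counting error of each other: the summed counts, scaled by library totals, gave a KO to WT ratio of 1.13 with an exact 95% interval of 0.448 to 2.92. Bmp5 did not reach the count filter and was not tested by edgeR.

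Bmp6 (ENSMUSG00000039004, chr13:38345716-38499728, plus strand), known best as the ligand that induces hepcidin in the liver, had 4, 37 and 99 counts in KO and 6, 4 and 1 counts in WT. Replicates 2 and 3 of KO were above all WT libraries, but KO replicate 1 lay inside the WT range. The ratio of the summed counts was 12 (exact 95% interval 6.51 to 24.6), an interval that covers counting error only and takes no account of the gap between KO libraries. Bmp6 fell under the count filter of the edgeR fit, and it passed the threshold in DESeq2, which tests it, in edgeR without a filter and in edgeR without KO replicate 1 (adjusted p = 0.00411, 2.3e-05 and 0.00543). Without KO replicate 1, which is the KO library inside the WT range, it entered the fit through the other two KO libraries, so this call follows in part from the filter. It did not pass in the edgeR fits without WT replicate 1, 2 or 3, which also tested it (adjusted p = 0.133, 0.126 and 0.168). In the GENCODE annotation Bmp6 overlaps Txndc5 on the other strand, a gene with up to 15980 counts, whereas the positions deposited with the TPM values, given here, put the end of Bmp6 before the start of Txndc5 at 38500273. Txndc5 itself did not pass the threshold (log2 fold change −0.12, edgeR adjusted p = 0.686), but whether the counts used strand was not stated in the sources used here, so reads of the pair may not be separable.

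Across the list of 13 BMP ligands 4 were tested, 2 were higher in KO (Bmp4 and Bmp7) and none was lower (50% called, beside 22.7% of all tested genes). None was lower either at an unadjusted p of 0.05 in edgeR (18.5% of all tested genes were) or in DESeq2 (11.8% of all were). Bmp7, a ligand of kidney and bone development, had 94, 67 and 26 counts in KO and 0, 0 and 1 in WT, all KO libraries above all WT libraries. The KO to WT ratio of its summed counts was 176 (exact 95% interval 31.3 to 7004, counting error only). Bmp7 entered the edgeR fit only through its KO counts, so its call follows in part from the filter and is no support for the list. Summed over the 13 ligands the level was 4.11 to 7.26 TPM in KO and 0.909 to 1.63 TPM in WT. Bmp4 made up 59.9%, 91.7% and 79.9% of this sum in the KO libraries and 87.8%, 92.2% and 70.2% in WT, so its share overlapped between genotypes.

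Bmpr1a (ENSMUSG00000021796, chr14:34410734-34503341, minus strand), the type I receptor also called ALK3, stood at 246, 198 and 219 CPM in KO and at 157, 155 and 160 CPM in WT. The WT libraries lay within a few CPM of one another and below all KO libraries. The means were 221 ± 24.3 and 157 ± 2.51 CPM (SD, n = 3 each), a 1.41-fold difference (log2 fold change 0.49 ± 0.13 SE, edgeR adjusted p = 0.0320, exact permutation p = 0.1). In TPM it stood at 26.6, 22.2 and 29.4 against 18.9, 19.1 and 18.2, and the adjusted p in limma was 0.0639. This call is the least stable of the 3: the edgeR adjusted p was 0.0613 without KO replicate 3, and 0.137, 0.0956 and 0.118 without WT replicates 1, 2 and 3, with log2 fold changes of 0.47 to 0.51 in these 4 fits.

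Bmpr2 (ENSMUSG00000067336, chr1:59763400-59879014, plus strand), the type II receptor with a long cytoplasmic tail, stood at 126, 84.6 and 152 CPM in KO and at 92.8, 101 and 96.6 CPM in WT. KO replicate 2 was below every WT library and KO replicates 1 and 3 were above. The log2 fold change was 0.32 ± 0.21 SE with an edgeR adjusted p of 0.284. Its coefficient of variation was 28.3% in KO and 4.24% in WT. Without KO replicate 2 the log2 fold change was 0.53 and the edgeR adjusted p 0.0449.

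All 12 receptors and co-receptors on the list were tested, 2 were higher and 2 lower in KO (33.3%, beside 22.7% of all tested genes), and the median log2 fold change was −0.08. Acvrl1, the type I receptor ALK1 of endothelial BMP9 signalling, rose at a low level, from 0.347, 0.183 and 0.108 CPM in WT to 0.755, 0.687 and 1.22 CPM in KO (log2 fold change 2.05 ± 0.51 SE, edgeR adjusted p = 0.0268). Acvr2a, a type II receptor shared by activins and BMPs, fell from 65.1, 75.5 and 61.6 CPM to 40.8, 35.6 and 41.0 CPM (log2 fold change −0.78 ± 0.13 SE, edgeR adjusted p = 0.00711). Rgmb, a membrane-anchored BMP co-receptor also called DRAGON, fell as well (log2 fold change −1.02 ± 0.25 SE, edgeR adjusted p = 0.0258). Acvrl1 had 12, 6 and 4 counts in WT and met the count filter through its KO libraries, so its call has the limit given for Bmp7. It was lost without KO replicate 3 and without WT replicates 1, 2 and 3 (edgeR adjusted p = 0.0746, 0.0512, 0.0877 and 0.105). The call of Rgmb was lost without KO replicate 3 and WT replicates 1 and 3 (edgeR adjusted p = 0.0579, 0.0927 and 0.0871). None of the 4 receptor Smads and co-Smad passed the threshold, beside 22.7% of all tested genes (Smad1, Smad5, Smad9 and Smad4, edgeR adjusted p from 0.253 to 0.670). At an unadjusted p of 0.05 edgeR gave 0 (20.5% of all tested genes higher and 18.5% lower), and DESeq2 gave 0 (24.3% of all). The median log2 fold change of these 4 genes was 0.03. Smad9 stood at 0.895, 1.14 and 0.561 CPM in KO and at 1.36, 1.43 and 1.16 CPM in WT, below WT in every KO library (log2 fold change −0.60, edgeR adjusted p = 0.253).

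**Figure D2:**
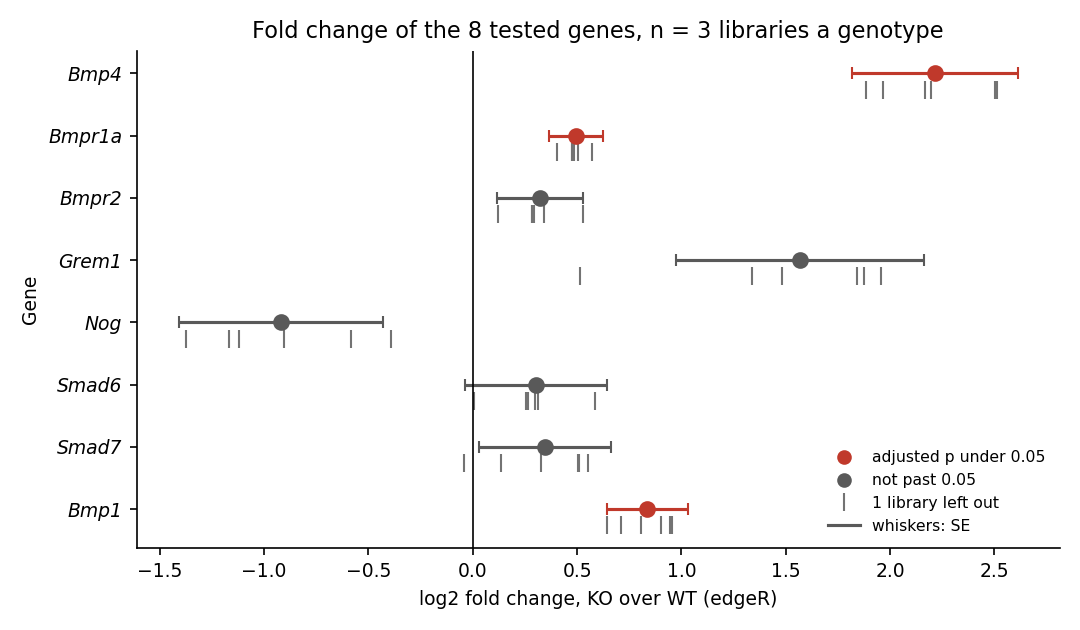
log2 fold change of KO over WT from edgeR for the 8 tested genes (circles, whiskers are SE, red where the adjusted p was under 0.05), with small bars for the fits that leave out 1 library. Bmp4 stays above 1.8 in all of them, Grem1 drops to 0.51 in one, and Smad7 reaches −0.043.

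Grem1 (ENSMUSG00000074934, chr2:113746164-113758646, minus strand) encodes gremlin, which binds Bmp2, Bmp4 and Bmp7. It stood at 85.4, 16 and 24.6 CPM in KO and at 12.6, 19.9 and 10.1 CPM in WT. KO replicate 1 was far above the other 5 libraries, and KO replicate 2 lay inside the WT range. The log2 fold change was 1.57 ± 0.59 SE with an edgeR adjusted p of 0.0920. It was 0.51 without KO replicate 1, and without KO replicate 2 it was 1.96 with an edgeR adjusted p of 0.0388. The same libraries were ordered differently for Bmp4: KO replicate 1 had the lowest Bmp4 and the highest Grem1 of its group.

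The window before the Grem1 start is shown because it is the one of the 2 antagonists with an entry in the table and holds 1 GGCGCC, in capitals, that begins 78 bases before the start (RefSeq, GRCm38.p6 chr2:113758649-113758898, minus strand, no annotated exon).
Grem1: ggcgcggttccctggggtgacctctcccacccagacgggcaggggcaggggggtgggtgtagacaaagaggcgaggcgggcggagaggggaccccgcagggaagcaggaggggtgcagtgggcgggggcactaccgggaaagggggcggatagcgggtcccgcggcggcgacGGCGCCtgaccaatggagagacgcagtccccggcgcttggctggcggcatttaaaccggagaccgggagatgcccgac
GGCGCC also occurred once in the windows of Bmpr1a (from 198 bases before the start), Bmpr2 (105) and Id2 (231, with 1 CAGCTG at 196), and not in those of Bmp5, Bmp6, Smad6 and Id3. All of these windows except that of Smad6 overlapped an annotated exon. GTCTAGAC occurred in none of the windows searched. A match of letters is a description and no binding was measured.

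Nog (ENSMUSG00000048616, chr11:89300638-89302332, minus strand) encodes noggin, an antagonist that covers the receptor-binding faces of BMP dimers. It was the only tested gene of the 10 with a negative estimate, at 3.36, 1.72 and 5.36 CPM in KO and at 4.71, 10.7 and 4.36 CPM in WT. The ranges overlapped, and KO replicate 3 exceeded 2 of the WT libraries. The log2 fold change was −0.92 ± 0.49 SE with an edgeR adjusted p of 0.202. Without WT replicate 2, the highest library, the estimate was smaller in size, and over the fits with 1 library left out it ran from −1.38 to −0.39.

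The ratio of Bmp4 to Nog, in TPM and chosen after the values were seen, was 1.98, 9.88 and 2.34 in KO and 0.543, 0.339 and 0.391 in WT. Bmp4 was thus above Nog in each KO library and below it in each WT library. The ratio of Bmp4 to Grem1 was 0.196, 2.72 and 1.31 in KO and 0.524, 0.455 and 0.426 in WT. Here KO replicate 1 was below all WT libraries and KO replicates 2 and 3 above. Neither ratio was tested.

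Of the 19 extracellular antagonists on the list 12 were tested, 6 were higher and 1 lower in KO (58.3%, beside 22.7% of all tested genes). Chrdl1, 1 of the 6, met the count filter only with its high KO libraries, as given below. The median of the 12 was 0.67 on the log2 scale. Bmper, a secreted BMP-binding protein related to crossveinless, stood at 27.1, 31.0 and 35.2 CPM in KO and at 4.63, 6.88 and 6.11 CPM in WT (log2 fold change 2.41 ± 0.20 SE, edgeR adjusted p = 0.000712). Fst encodes follistatin, which binds activins, myostatin and, more weakly, BMPs, and fell from 177, 145 and 212 CPM in WT to 67.8, 23.1 and 52.0 CPM in KO (log2 fold change −1.90 ± 0.36 SE, edgeR adjusted p = 0.0111). Both genes separated the genotypes with a wide gap, in opposite directions.

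Chrd encodes chordin, the antagonist that the Bmp1 protease cleaves, and stood at 54.3, 31.1 and 37.2 CPM in KO against 20.7, 18.5 and 27.0 CPM in WT (log2 fold change 0.89 ± 0.24 SE, edgeR adjusted p = 0.0331). Twsg1, a chordin and BMP binding protein, rose with a log2 fold change of 0.72 ± 0.11 SE (edgeR adjusted p = 0.00580). Crim1, a membrane protein with chordin-like repeats, rose with a log2 fold change of 1.11 ± 0.23 SE, and Nbl1, a DAN family antagonist, with 0.58 ± 0.15 SE (edgeR adjusted p = 0.0155 and 0.0283). Chrdl1, a chordin-like antagonist, was called higher (log2 fold change 3.73 ± 1.01 SE, edgeR adjusted p = 0.0346), although KO replicate 1 at 0.252 CPM lay below WT replicate 1 at 0.289 CPM. Its counts were 9, 74 and 190 in KO and 10, 3 and 4 in WT. Chrdl1 met the count filter only with KO replicates 2 and 3, so its call follows in part from the filter. With 1 library left out it passed only without KO replicate 1 (edgeR adjusted p otherwise 0.0536 to 0.123), and its log2 fold change was 2.57 without KO replicate 3. Chrd was lost without KO replicate 3 or any 1 WT library (0.0588 to 0.130), Nbl1 without KO replicate 2 or any 1 WT library (0.0648 to 0.115), and Crim1 without WT replicates 1 and 3 (0.0717 and 0.0597).

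**Figure D3:**
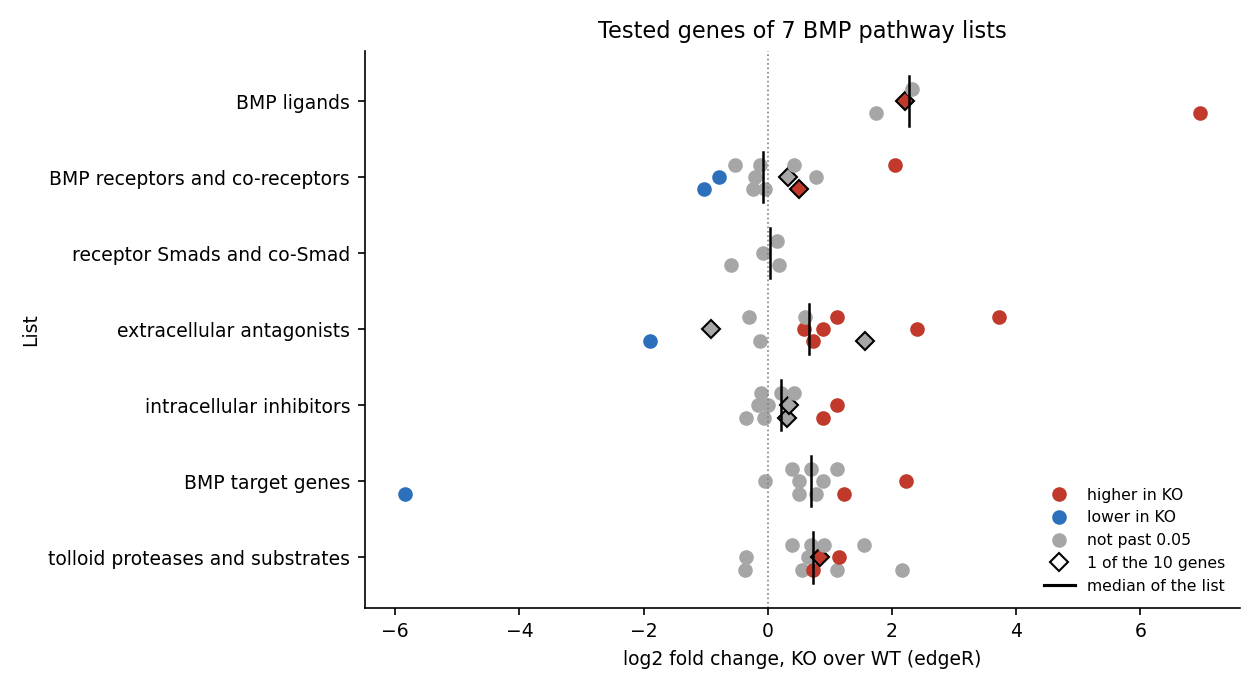
log2 fold change of KO over WT (edgeR) for the 67 tested genes of 7 BMP pathway lists, red where higher and blue where lower in KO, diamonds for genes of the set of 10, and a bar at each list's median. The 4 tested ligands of 13 lie to the right, but 2 of them were not called and Bmp7 entered the fit only through its KO counts. Receptor Smads lie between −0.60 (Smad9) and 0.19 (Smad5), and antagonists spread to both sides.

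Smad6 (ENSMUSG00000036867, chr9:63953076-64022059, minus strand) encodes the inhibitory Smad that acts mainly on BMP receptors and Smad1. It stood at 2.29, 4.42 and 5.71 CPM in KO and at 3.18, 3.44 and 3.45 CPM in WT. The WT libraries were close together, and the KO libraries lay on both sides of them. The log2 fold change was 0.30 ± 0.34 SE with an edgeR adjusted p of 0.543, and it was 0.59 without KO replicate 1 and 0.0067 without KO replicate 3.

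The Smad6 window is shown as that of an inhibitory Smad known as a direct BMP target (RefSeq, GRCm38.p6 chr9:64022060-64022309, minus strand, no annotated exon). None of the motifs searched occurred in it.
Smad6: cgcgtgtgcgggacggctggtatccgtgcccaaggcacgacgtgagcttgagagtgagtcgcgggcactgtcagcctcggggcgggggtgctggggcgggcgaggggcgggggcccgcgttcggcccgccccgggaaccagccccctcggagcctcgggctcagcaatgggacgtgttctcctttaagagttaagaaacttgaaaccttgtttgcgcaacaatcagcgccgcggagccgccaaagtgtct

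Of the 11 intracellular inhibitors, all tested, 2 were higher and none lower (18.2%, beside 22.7% of all tested genes). At an unadjusted p of 0.05 edgeR gave 3 higher and 0 lower (20.5% and 18.5% of all tested genes), DESeq2 gave 2 and 0 (12.5% and 11.8% of all), and the median was 0.22 on the log2 scale. Ski, a Smad co-repressor, had a log2 fold change of 0.89 ± 0.26 SE (edgeR adjusted p = 0.0423), and Pmepa1, a membrane protein that sequesters receptor Smads, one of 1.11 ± 0.33 SE (edgeR adjusted p = 0.0468). In both the ranges overlapped. Ski was at 60.6 CPM in KO replicate 1 and at 61.0 CPM in WT replicate 2, and Pmepa1 was at 209 CPM in KO replicate 2 and at 229 CPM in WT replicate 2. With 1 library left out, Ski passed only without KO replicate 1 (edgeR adjusted p otherwise 0.0729 to 0.151) and Pmepa1 only without KO replicate 2 (otherwise 0.0552 to 0.167). In limma on TPM the adjusted p of Ski was 0.101.

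Smad7 (ENSMUSG00000025880, chr18:75367529-75395935, plus strand) encodes the inhibitory Smad that also acts on TGF-beta and activin receptors. It stood at 11.9, 12.1 and 23.2 CPM in KO and at 12.3, 15.9 and 9.08 CPM in WT. KO replicates 1 and 2 lay inside the WT range and KO replicate 3 above it. The log2 fold change was 0.35 ± 0.32 SE (edgeR adjusted p = 0.453) and −0.043 without KO replicate 3.

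Transcriptional targets of the pathway were taken from a list of 12 genes, of which 11 were tested, 2 were higher and 1 lower (27.3%, beside 22.7% of all tested genes), with a median log2 fold change of 0.69. Id1, a common readout of BMP signalling, stood at 14.1, 17 and 19.8 CPM in KO and at 7.40, 8.80 and 5.47 CPM in WT (log2 fold change 1.23 ± 0.22 SE, edgeR adjusted p = 0.00957). All KO libraries were above all WT libraries. Id2 stood at 7.83, 16.9 and 12.3 CPM in KO and at 9.08, 6.00 and 6.54 CPM in WT, with a log2 fold change of 0.78 and an edgeR adjusted p of 0.0987. Id3 stood at 1.85, 15.8 and 8.78 CPM in KO and at 4.39, 4.35 and 3.47 CPM in WT, with a log2 fold change of 1.12 and an edgeR adjusted p of 0.221. Without KO replicate 1 both passed in edgeR, Id2 at a log2 fold change of 1.01 (adjusted p = 0.0159) and Id3 at 1.59 (adjusted p = 0.00483), while without KO replicate 2 they were at 0.49 and 0.40 (adjusted p = 0.261 and 0.651). For Id2 and Id3 KO replicate 1 was inside or below the WT range and the other two KO libraries were above it. Atoh8, a bHLH factor and target of ALK1 and BMP signalling, rose from 4.05, 2.5 and 4.44 CPM in WT to 9.11, 27.6 and 14.9 CPM in KO (log2 fold change 2.23 ± 0.42 SE, edgeR adjusted p = 0.0107). Without WT replicate 1 neither Id1 nor Atoh8 passed (edgeR adjusted p = 0.0510 and 0.0520). Id4 went the other way, with 2, 0 and 0 counts in KO against 49, 27 and 46 in WT (WT to KO ratio of summed counts 64.7, exact 95% interval 17.5 to 540.0, counting error only), and it entered the edgeR fit only through its WT counts, so its call carries the same limit as that of Bmp7.

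Of 9 osteoblast markers 7 were tested, Alpl, Spp1 and Phex were higher and Dmp1 lower in KO (57.1% called, beside 22.7% of all tested genes), and the summed level was 271, 134.2 and 271 TPM in KO and 101, 134.6 and 111 TPM in WT, so KO replicate 2 lay inside the WT range. Spp1 alone held 240, 128 and 261 TPM of the KO sums and 94.3, 129 and 104 TPM of the WT sums. The sum thus mostly gives the level of this 1 gene. Alpl, tissue non-specific alkaline phosphatase, had 185, 24 and 36 counts in KO and 5, 1 and 2 in WT, so that it entered the fit through its KO counts and has the limit given for Bmp7. The osteoblast transcription factor gene Sp7 was at 0 to 0.112 CPM and the bone sialoprotein gene Ibsp at 0 to 0.0914 CPM in all 6 libraries. Runx2, which is also on the target list, had a log2 fold change of 0.90 with an edgeR adjusted p of 0.0640.

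Bmp1 (ENSMUSG00000022098, chr14:70474557-70520260, minus strand) stood at 138, 131 and 192 CPM in KO and at 71.9, 101 and 86.0 CPM in WT. All KO libraries were above all WT libraries, and KO replicate 3 was the highest. The means were 154 ± 33.7 and 86.1 ± 14.4 CPM (SD, n = 3 each), a 1.78-fold difference (log2 fold change 0.84 ± 0.19 SE, edgeR adjusted p = 0.0214, exact permutation p = 0.1). In TPM it stood at 21.7, 22.1 and 38 against 12.7, 18.5 and 14.0, a difference of 0.78 in log2(TPM + 1) with a limma adjusted p of 0.0479, lost without KO replicate 3 (0.103), WT replicate 1 (0.188) and WT replicate 3 (0.136). The edgeR adjusted p was 0.0972 without WT replicate 1 and 0.0864 without WT replicate 3.

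The list of tolloid proteases and their substrates had 14 genes, of which 13 were tested, 3 were higher and none lower in KO (23.1%, near the 22.7% of all tested genes). At an unadjusted p of 0.05 edgeR gave 6 higher and 1 lower (of all tested genes 20.5% and 18.5%), DESeq2 gave 6 and 0 (of all 12.5% and 11.8%), and the list had a median of 0.73 on the log2 scale. Beside Bmp1 these were Pcolce, the enhancer of procollagen C-proteinase, with a log2 fold change of 0.73 ± 0.16 SE, and Lox, lysyl oxidase, whose precursor Bmp1 cleaves, with 1.14 ± 0.18 SE (edgeR adjusted p = 0.0173 and 0.00605). The call of Pcolce was lost without any 1 of the WT libraries (edgeR adjusted p = 0.0503 to 0.0973). Lox stood at 217, 190 and 270 CPM in KO and at 95.4, 121 and 91.0 CPM in WT. In this list 5 of 13 genes had every KO library above every WT library, Bmp1, Pcolce and Lox among them (38.5%, beside 22.7% of all tested genes), and 1 had every KO library below. Col1a1, the type I collagen substrate, had a log2 fold change of 2.16 that did not pass (edgeR adjusted p = 0.0760, overlapping ranges). Col1a2, the other chain of type I collagen, had one of −0.36 (edgeR adjusted p = 0.414), and Loxl1, a lysyl oxidase relative, one of −0.36 with every KO library below WT (edgeR adjusted p = 0.105). Dcn stands on this list and on that of the fibroblast markers, of which 4 of 6 tested (66.7%, beside 22.7% of all) were higher in KO, and did not pass (log2 fold change 1.54, edgeR adjusted p = 0.259).

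**Figure D4:**
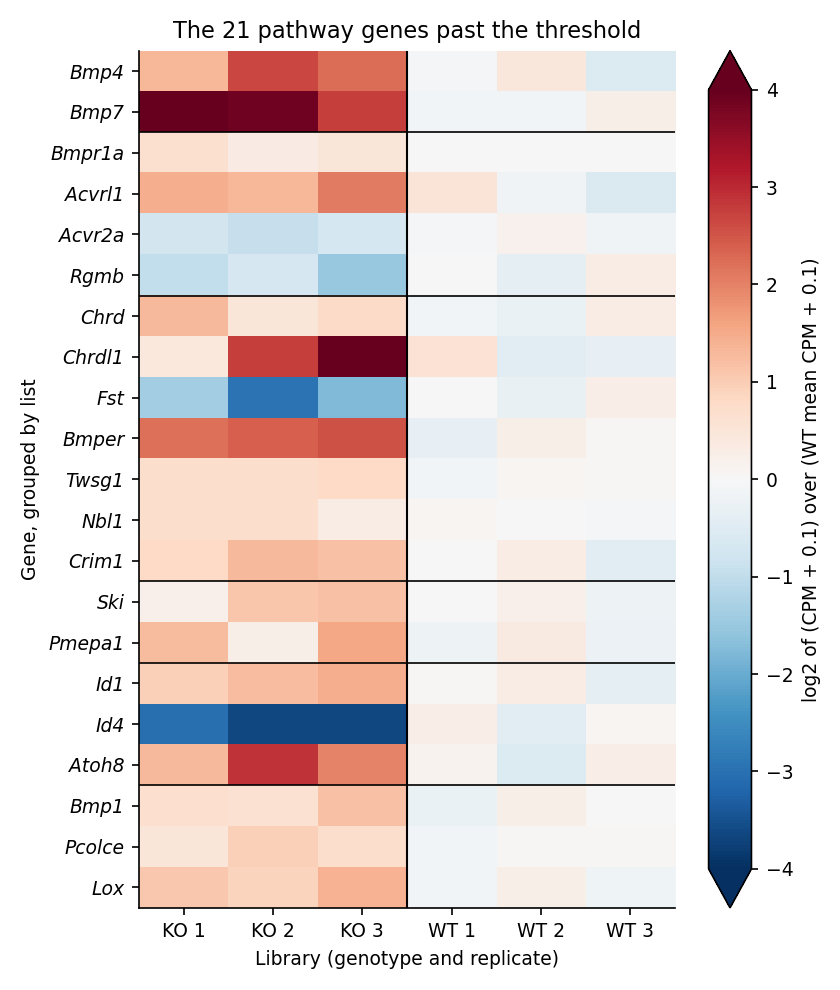
The 21 pathway genes past the edgeR threshold by library, grouped by list, as log2 of CPM plus 0.1 over the WT mean plus 0.1 (colours are capped at 4 in either direction). The 17 higher genes are red in KO and the 4 lower ones blue, and the 3 genes whose ranges overlap (Chrdl1, Ski and Pmepa1) are each paler in 1 KO library than in the darkest WT library.

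Over the 7 lists together 67 of 85 genes were tested, 17 were higher and 4 lower in KO (31.3%, beside 22.7% of all tested genes), and the median log2 fold change was 0.50. These calls include Bmp7, Acvrl1, Chrdl1 and Id4, which met the count filter only with the libraries where they were high. The share of 31.3% thus follows in part from the filter. Without WT replicate 1 the counts were 4 higher (Bmp7, Bmper, Lox and Twsg1) and 3 lower (Acvr2a, Fst and Id4) of 68 tested, when 6.01% of all tested genes passed. Without WT replicate 3 they were 7 and 3 of 68 (8.43% of all), without WT replicate 2 they were 10 and 4 of 68 (13.6% of all), and without KO replicate 3 they were 11 and 3 of 66 (13.9% of all). Bmper, Lox and Twsg1 (higher) and Acvr2a and Fst (lower) passed in each of these 4 fits, as did Bmp7 and Id4 with the limit given above.

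By length-corrected level the order in WT ran Bmpr1a, Bmp1, Bmpr2, Nog, Grem1, Smad7, Bmp4, Smad6, Bmp5 and Bmp6, from a mean of 18.7 TPM down to 0.0102 TPM. Neighbours in this order had separate ranges only between Bmp1 and Bmpr2, between Bmpr2 and Nog, and between Smad6 and Bmp5. In KO it ran Bmp1, Bmpr1a, Bmpr2, Grem1, Bmp4, Smad7, Nog, Smad6, Bmp6 and Bmp5, from a mean of 27.3 TPM to 0.00929 TPM, and Bmpr1a and Bmpr2 were the only neighbours with separate ranges. Bmp4 was thus the 7th of the 10 genes in WT and the 5th in KO, and Nog the 4th and the 7th.

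The KO libraries differed more among themselves than the WT libraries did. The coefficient of variation was larger in KO for 7 of the 8 tested genes (87.5%), beside 68.9% of the 14813 tested genes with a value in both genotypes. KO replicate 3 had the highest CPM of its group for 6 of the 10 genes and the lowest for none, and KO replicate 2 the lowest for 6. The 6 lowest in KO replicate 2 include Bmp5, at 6, 2 and 4 counts in KO. The same was not counted over all tested genes, so these numbers only describe the 10. Nog was the tested gene whose spread was not larger in KO.

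Bmp1, Bmp4 and Bmpr1a all lie on chromosome 14, with gaps of 24.1 Mb between Bmp1 and Bmp4 and 11.9 Mb between Bmp4 and Bmpr1a. The other tested genes within 5 Mb on either side had a median log2 fold change of 0.35 around Bmp1 (58 genes), 0.02 around Bmp4 (52 genes) and 0.07 around Bmpr1a (57 genes), beside 0.03 over all tested genes. The neighbours of Bmp1 were positive in 72.4% of cases, beside 52.3% of all tested genes, and 24.1% of them passed the threshold, beside 22.7% of all. Around the other 7 genes the medians ran from −0.22 (Smad6) to 0.26 (Bmpr2).

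The genes with the pattern most like each called gene were sought by Pearson's r of log2 CPM over the 6 libraries, whose 2 genotypes every such gene shares, among the tested genes averaging 3 or more in log2 CPM. For Bmp4 these were Irf2bpl, Cdc42ep1 and Jdp2 (r = 0.999, 0.998 and 0.998), and for Bmp1 they were Clasrp, Clcn5 and Ltbp1 (r = 0.996, 0.995 and 0.995). For Bmpr1a they were D5Ertd579e, C1qtnf3 and Elmod2 (r = 0.999, 0.997 and 0.992). With 6 libraries and 8864 or 8865 genes searched, such values are a description of these libraries.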

How the data were processed

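Total RNA of 6 C2C12 cultures (3 Hnrnpa2b1 KO, 3 WT, 2 days of differentiation) was depleted of ribosomal RNA and sequenced in 2 × 150 base pairs. The authors trimmed the reads, aligned them with STAR and deposited a table of raw counts per gene from featureCounts, together with TPM per gene and library from StringTie. The labels name the mm9 build and the methods GRCm39, but gene positions deposited with the TPM values matched GENCODE vM21 on GRCm38 (83.2% identical, 97.1% within 5000 bases), so positions are given on GRCm38. Tool versions and use of strand are not given in the sources used here.

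Counts were tested with edgeR 4.0.16 in R 4.3.3 (TMM factors of 0.949 to 1.08, filterByExpr, quasi-likelihood F test, two-sided, Benjamini-Hochberg over 14828 genes). CPM are TMM-scaled with no prior count, and the SE is the log2 fold change divided by the root of F. TPM were tested with limma 3.58.1 on log2(TPM + 1) over genes with at least 1 TPM in at least 3 libraries, a scale that understates changes of low genes. DESeq2 1.42.0, other scalings, no filter, each library left out and a replicate term were alternatives. The edgeR, DESeq2 and limma fits were tried on simulated counts with known changes and the same dispersion for every gene. The other steps were not tested in this way. Ratios of summed counts carry exact 95% binomial intervals, which cover counting error only. Libraries of a genotype differed by far more than sampling noise (chi-square per degree of freedom 50.1 to 189), so none was counted as a duplicate.

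The 10 genes and all lists were chosen with earlier results of these data known. Genes named are the 10 genes, every gene of the 7 pathway lists past the threshold, Id1, Id2 and Id3, the 3 genes most like each called gene, and genes beyond these (Txndc5, Col1a1, Col1a2, Loxl1, Dcn, Runx2, the receptor Smads and the cell type markers) chosen after their values were seen. Hjv and Mymk are counted under older symbols. Promoter windows come from RefSeq. That table gave none for Bmp1, Nog, Smad7, Id1 and Bmp7. 1 further gene of the antagonist list is not reported here.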

Additional observations from a re-analysis of the deposited data

How the results depend on the processing

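Of 103 values of the 8 tested genes under an alternative in edgeR, DESeq2 or limma, 88 kept direction and side of the threshold, 10 were no longer past it, 4 newly passed and 1 changed sign. RLE factors, library totals and upper quartile factors left the same 3 genes past the threshold, beside 22.8%, 23.4% and 23.1% of all tested genes (library totals moved the median of all genes from 0.03 to 0.15). DESeq2 gave 4 of 10 with Bmp6, beside 24.3% of all. With every gene with a count tested, 5 of the 10 passed, beside 15% of all (they were Bmp1, Bmp4, Bmp6, Grem1 and Nog). Bmpr1a did not (log2 fold change 0.47), while Grem1 (1.55) and Nog (−0.94) did. Of 81 pathway genes 26 were higher and 5 lower in this fit (7.67% and 7.33% of all). With limma on log2(TPM + 1), Bmpr1a was at 0.45 and did not pass. Of the 52 pathway genes that limma tested, 12 were higher and 3 lower (8.59% and 11.9% of all). Without the TPM filter the differences of Bmp1 (0.78) and Bmp4 (1.47) did not pass.

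Leaving out each library in turn gave 0 to 5 of the 8 or 9 genes tested past the threshold, and of 66 to 68 pathway genes 4 to 22 higher and 3 to 4 lower, when 6.01% to 30.6% of all tested genes passed. The log2 fold changes then ran from 0.65 to 0.95 for Bmp1, 1.88 to 2.51 for Bmp4, 0.40 to 0.57 for Bmpr1a, 0.12 to 0.53 for Bmpr2, 0.51 to 1.96 for Grem1 and −0.043 to 0.55 for Smad7. The TPM differences ran from 0.52 to 0.93 for Bmp1, 1.25 to 1.82 for Bmp4, −0.023 to 0.46 for Bmpr2, 0.44 to 1.43 for Grem1 and −0.13 to 0.42 for Smad7, and the values below 0 for Bmpr2 and Smad7 came without KO replicate 3. A fit without 1 library has fewer samples, and no cause beyond that was tested.

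The replicate numbers do not pair the libraries: deviations from the genotype means correlated at 0.14, −0.12 and 0.0041 between libraries of the same number, and KO replicates 2 and 3 correlated best with another number. With the replicate block, 2 of the 8 tested genes passed (Bmpr1a, at 0.49, did not), and of 67 pathway genes 12 were higher and 3 lower, beside 17% of all tested genes past the threshold. Beside Bmpr1a, the calls of Acvrl1, Chrdl1, Ski, Pmepa1 and Rgmb were lost (log2 fold changes 2.08, 3.19, 0.83, 1.06 and −1.04, edgeR adjusted p = 0.0556, 0.0938, 0.0584, 0.104 and 0.0580).

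A count of 0 allows up to 3 counts, or 0.0687 to 0.0914 CPM by library, which bears on Bmp5 and Bmp7 in WT and on Id4 in KO.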
